A study of Cricetulus griseus with 20 samples.

Results

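The last sampled interval of adipogenic differentiation under normal oxygen, from day 7 (D7) to day 11 (D11), was followed in primary preadipocytes of the Chinese hamster. The comparison rests on 4 of the 20 libraries of the series, 2 labelled Normoxia D11 and 2 labelled Normoxia D7, chosen by these labels and not by any measured value. All cells came from the inguinal white adipose tissue (iWAT) of female hamsters aged 6 weeks, whose tissue was pooled, so that no library stands for a single animal. After confluence (D0) they were induced for 2 days with dexamethasone, insulin and IBMX, which raises cAMP, and were then kept in medium with insulin, the medium of both the D11 and the D7 cells. Normoxia means a conventional incubator, and the hypoxia groups that serve as a comparison spent the last 24 h before D11 or D7 in 1% oxygen, with 2 libraries each. The pairs of libraries are described by the study as biological replicates. Neither its methods nor the labels say whether they came from separate cultures. The p-values rest on the spread within the pairs of libraries of all groups of the series, and not on that of these 4 libraries alone. Total RNA depleted of ribosomal RNA was sequenced, and the files list 10318 mRNAs and 4295 lncRNAs in TPM, a transcript's share of its library after correction for transcript length.

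White adipocytes store energy as triglyceride in a lipid droplet. Differentiation is driven by the nuclear receptor PPARγ (Pparg) together with C/EBP factors, and cells then gain proteins for fatty acid uptake (Cd36, Fabp4, Lpl), for triglyceride assembly (Gpd1, Dgat2), for the droplet coat (perilipins) and for lipolysis (Pnpla2, Lipe). Committed cells normally leave the cell cycle. Oxygen shortage stabilizes HIF transcription factors, which raise glycolytic enzymes and the lipase inhibitor Hilpda.

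The labels of the D11 libraries were checked first. A set of 75 mRNAs was higher in hypoxia at each of D0, D1 and D3 by the thresholds used for differentially expressed (DE) mRNAs, and its median level in a library was expressed as log2(TPM + 1) minus the median of all mRNAs in that library. In the libraries labelled Hypoxia, day by day, it was 2.04 and 1.97 (D0), 2.18 and 2.30 (D1), 2.97 and 2.96 (D3), 2.77 and 2.89 (D7), and 2.66 and 2.66 (D11). The libraries labelled Normoxia had values of -0.07 and 0.09 (D0), 0.14 and 0.07 (D1), 1.00 and 1.03 (D3), 2.18 and 2.20 (D7), and 2.67 and 2.78 (D11). At D0, D1 and D3 the choice of the set fixed the order of the groups, so that only D7 and D11 can inform. By this measure the oxygen labels separated the libraries at D7 and did not at D11. The medians that were subtracted differed, however. The median mRNA had 11.7 and 10.9 TPM in the Hypoxia D11 libraries, against 6.79 and 7.86 TPM in the Normoxia D11 libraries. Without the subtraction the set had a median log2(TPM + 1) of 6.32 and 6.23 in Hypoxia, against 5.63 and 5.93 in Normoxia at D11. On that scale the libraries stood in the order of their labels at D11 as well as at D7, but the 2 days were unlike. At D7 the median change of the set, Hypoxia minus Normoxia, was 0.50, against -0.19 for all mRNAs. At D11 it was 0.30, below the 0.51 of all mRNAs, so that the order there was not particular to the set. Relative to the medians, 57 of the 75 mRNAs were higher and 6 lower in Hypoxia than in Normoxia at D7 (20.6% and 23.1% of all mRNAs), and 17 were higher and 31 lower at D11 (32.2% and 33.3% of all). Without the medians 36 were higher and 15 lower at D11 (63.3% and 13.2% of all), and after quantile normalization 37 and 18 (33.1% and 32.9% of all), both scalings being chosen after seeing the data. The order of the D11 libraries by oxygen thus depended on the scaling. Every direction given here holds for the labels as deposited, and the change of the Hypoxia D11 libraries from the same Normoxia D7 libraries, with which the main comparison shares its D7 libraries, is given near the end.

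**Figure D1:**
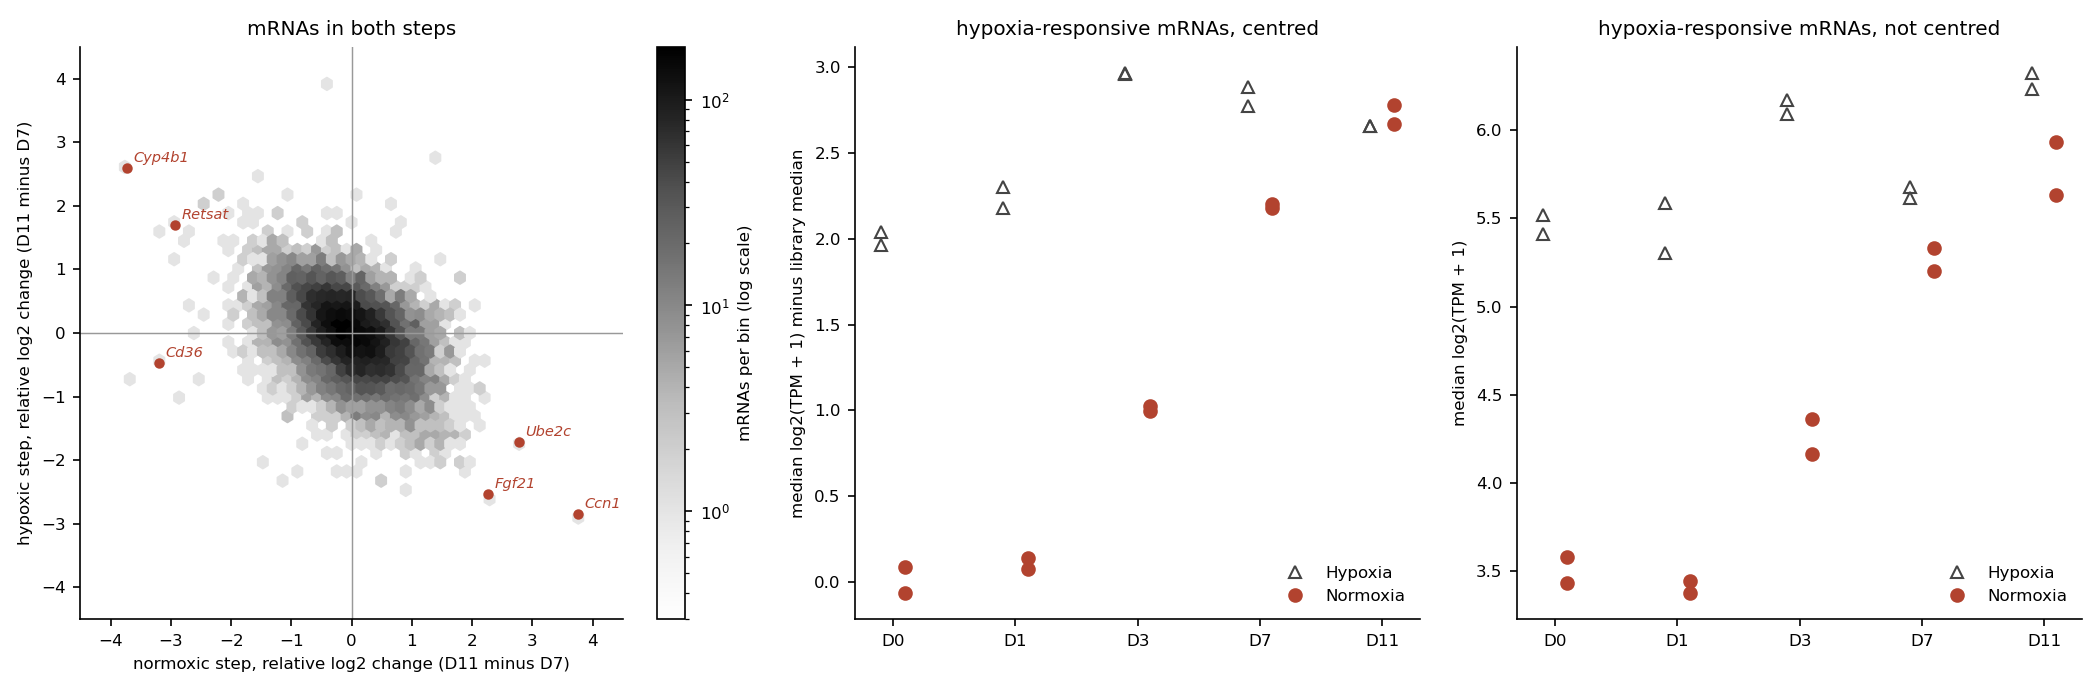
Left, relative log2(TPM + 1) change D11 minus D7 of the mRNAs in normoxia (horizontal) and in hypoxia (vertical), shading giving the number of mRNAs per bin on a log scale and 6 mRNAs marked (1 mRNA is outside the axes). Middle and right, median log2(TPM + 1) of the 75 mRNAs that were higher in hypoxia at D0, D1 and D3 in each library, minus the library median (middle, Hypoxia at 2.66 and 2.66 against Normoxia at 2.67 and 2.78 at D11) and without that subtraction (right, Hypoxia at 6.32 and 6.23 against Normoxia at 5.63 and 5.93 at D11).

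Changes were measured on log2(TPM + 1) relative to the median change of all mRNAs, which was 0.01, and were tested with limma across all 20 libraries. A member of a gene list is said to have risen or fallen where its Benjamini-Hochberg adjusted p was under 0.05, and a DE mRNA also had a relative change beyond 1. By the adjusted p, 3101 mRNAs rose (30.1%) and 3012 fell (29.2%). DE mRNAs numbered 539 higher at D11 (5.22%) and 436 lower (4.23%). The count of higher DE mRNAs was 292 after quantile normalization (391 lower) and 324 over mRNAs with a mean of at least 5 TPM (424 lower), and 1006 were lower with a pseudocount of 0.1 (691 higher). Only 3851 mRNAs could be given a gene symbol, and these lean towards genes that the study called or listed. Among them 24.1% rose and 43.4% fell, with a median relative change of -0.19, and the counts of each gene list are to be read against these shares. After quantile normalization 26.7% rose and 40.6% fell. The rises leaned towards abundant mRNAs. When the mRNAs were split into 5 equal classes by their mean TPM in the other 16 libraries, 1097 rose and 267 fell among the 2064 of the highest class, whereas 241 rose and 831 fell among the 2064 of the lowest class. The listed mRNAs and lncRNAs together held 45.2% and 49.0% of all TPM at D11, against 29.4% and 30.8% at D7. As the cultures are bulk samples, a change in the share of cells of one kind and a change of RNA per cell cannot be told apart.

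The largest rises were led by a matricellular protein and by genes of mitosis, sterol balance and stress. Ccn1, a secreted integrin ligand of the matrix, had 106 and 115 TPM at D11, against 5.95 and 8.65 TPM at D7, a relative log2 change of 3.75 ± 0.18 (SE; adjusted p = 4.1e-11, limma). Ube2c, the ubiquitin-conjugating enzyme of the anaphase-promoting complex, had 40.3 and 47.3 TPM at D11, against 5.43 and 5.49 TPM at D7. By their means these genes were 15.1 and 8.02 times higher at D11. That the libraries of the 2 days do not overlap was required by the rule for naming the largest rises. Fgf21, a hormone of the stress and fasting response, had 11.4 and 12.9 TPM at D11, against 2.03 and 1.42 TPM at D7. Insig1, which retains the sterol sensor SCAP in the endoplasmic reticulum, had 318 and 397 TPM at D11, against 75.9 and 84.7 TPM at D7. Hilpda, an inhibitor of the triglyceride lipase ATGL, had 1511 and 1686 TPM at D11, against 391 and 426 TPM at D7. These 3 changes were 2.27, 2.13 and 1.96 on the relative log2 scale. The other 7 of the 12 were Hsd17b7 (2.25), Upp1 (2.11), Ciart (2.00), Tmem258 (1.98), Gadd45b (1.97), Cdc20 (1.89) and Top2a (1.89).

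Several of the largest falls were in genes that had climbed up to D7. Cyp4b1, a cytochrome P450 of fatty acid and xenobiotic hydroxylation, had 0.996 and 1.19 TPM at D11, against 23.05 and 30.6 TPM at D7, 24.5 times lower at D11 by the means (-3.73 ± 0.19, adjusted p = 4.7e-11). Cd36, the fatty acid translocase of the plasma membrane, had 5.57 and 7.996 TPM at D11, against 60.5 and 77.8 TPM at D7. Retsat, a retinol saturase induced in adipocyte differentiation, had 5.25 and 4.96 TPM at D11, against 39.7 and 51.2 TPM at D7. At D11 all 3 were back within the range of the normoxic libraries of D0 to D3. In the normoxic series, Cd36 averaged 1.19 TPM (D0), 1.76 TPM (D1), 10.5 TPM (D3), 69.2 TPM (D7) and 6.78 TPM (D11), and Retsat 3.09, 5.75, 17.3, 45.4 and 5.11 TPM on the same days. Id1, an inhibitor of basic helix-loop-helix factors, had 4.84 and 3.42 TPM at D11, against 30.1 and 31.7 TPM at D7, and Bmf, a BH3-only inducer of apoptosis, had 2.63 and 3.03 TPM at D11, against 21.5 and 26.8 TPM at D7. The mitochondrial carrier Ucp3 had 1.25 and 1.01 TPM at D11, against 11.6 and 13.1 TPM at D7, and the chemokine Cxcl12 6.36 and 8.48 TPM at D11, against 33.1 and 42.9 TPM at D7. No D11 library of these 7 genes reached a D7 library, as the rule for naming them required. The other 5 were Rnf152 (-2.90), Spaar (-2.73), Krcc1 (-2.52), Rnf125 (-2.50) and Sult1a1 (-2.20). Of the 24 mRNAs named as largest rises or falls, 23 had a change of opposite sign from D7 to D11 in hypoxia. There too the change was taken relative to the median of all mRNAs.

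**Figure D2:**
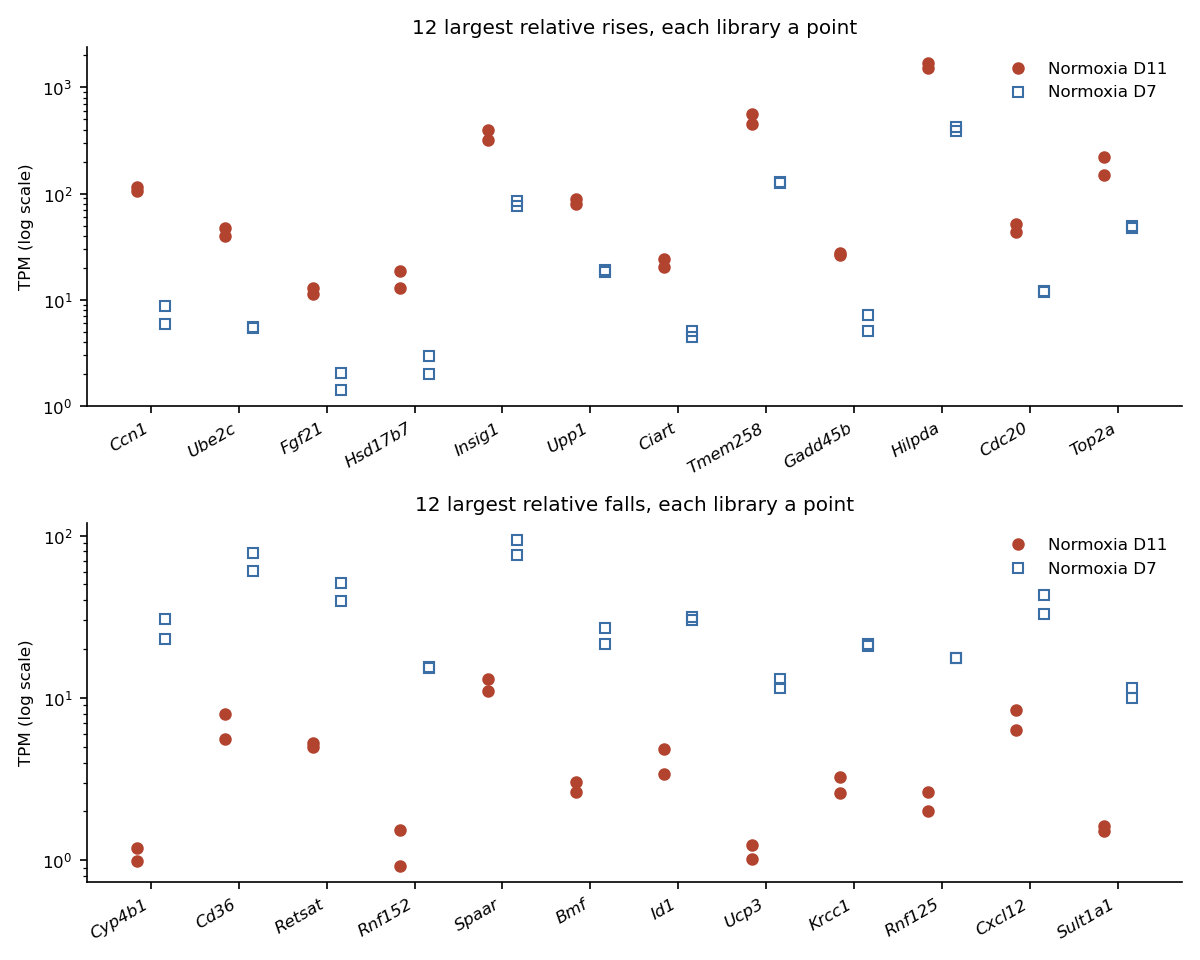
TPM on a log scale of the 12 mRNAs with the largest relative rises (top) and falls (bottom) that had a symbol and a mean of at least 10 TPM in the higher group. Filled circles are the 2 Normoxia D11 libraries and open squares the 2 Normoxia D7 libraries, which do not overlap for any of the 24, as the naming rule required.

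Genes of fatty acid uptake fell or did not pass the test, and none rose, though 1 did after quantile normalization. Of 11 measured members, 7 fell, with a list median of -0.53. Fabp4, the cytosolic fatty acid carrier, had 226 and 251 TPM at D11, against 428 and 414 TPM at D7, and Lpl, the lipoprotein lipase that frees fatty acids outside the cell, had 2.99 and 3.27 TPM at D11, against 5.24 and 7.19 TPM at D7 (-0.80 ± 0.16, adjusted p = 0.00032). The glycerol channel Aqp7 had 0.740 and 0.844 TPM at D11, against 3.79 and 4.02 TPM at D7. Slc27a4, an acyl-CoA synthetase of fatty acid import, had 1.84 and 1.38 TPM at D11, against 4.65 and 5.03 TPM at D7, and Slc27a1 and Vldlr fell by less, with changes of -0.52 and -0.53. All of these members were lower in both D11 libraries, and the call of Slc27a1 was lost after quantile normalization and without replicate 2 of Normoxia D11. Slc27a6 and Acsl5 overlapped between the days, at 18.2 and 18.8 TPM at D11, against 17.1 and 18.4 TPM at D7 for Slc27a6 and 18.8 and 22.3 TPM at D11, against 20.0 and 19.1 TPM at D7 for Acsl5, and Slc27a3 (0.12) and Lmf1 (-0.23) did not pass the test.

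Genes of fatty acid synthesis moved apart. In this list 1 of 8 members rose and 4 fell, with a median of -0.09 that became 0.01 over the 6 members of at least 5 TPM. Fasn, the cytosolic fatty acid synthase, had 3.07 and 3.46 TPM at D11, against 5.53 and 6.14 TPM at D7, and ELOVL6, which extends palmitate, had 3.24 and 4.43 TPM at D11, against 6.57 and 5.56 TPM at D7, a call lost without replicate 1 of Normoxia D7. The mitochondrial pathway held the other large fall, Oxsm, with 0.549 and 0.531 TPM at D11, against 1.82 and 2.18 TPM at D7, and the riser, Mecr, with 6.10 and 6.68 TPM at D11, against 4.48 and 4.40 TPM at D7. Acaca, which makes malonyl-CoA, had 19.4 and 24.1 TPM at D11, against 18.5 and 19.7 TPM at D7, Acly, a source of cytosolic acetyl-CoA, had 74.8 and 81.8 TPM at D11, against 61.8 and 66.8 TPM at D7, and Scd1, which desaturates stearate, had 9.21 and 11.5 TPM at D11, against 8.83 and 9.24 TPM at D7. None of these last 3 passed the test, with adjusted p of 0.24, 0.070 and 0.30. The regulator Srebf1 had 0.229 and 0.291 TPM at D11, against 0.503 and 0.651 TPM at D7, a call lost after quantile normalization.

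Triglyceride assembly fell in 4 of its 6 members and rose in 1. Gpd1, which makes glycerol 3-phosphate, had 0.443 and 0.500 TPM at D11, against 3.49 and 3.38 TPM at D7. Its relative Gpd1l had 9.92 and 9.74 TPM at D11, against 28.0 and 29.3 TPM at D7. Both fell by more than the phosphatidate phosphatase Lpin3, with 1.62 and 1.58 TPM at D11, against 3.01 and 3.72 TPM at D7, and Lpin1, at -0.23, did not pass the test. The riser was Dgat2, which adds the last acyl chain, with 1.97 and 1.84 TPM at D11, against 0.871 and 0.944 TPM at D7. Seipin (Bscl2), which acts where droplets form, had a change of -0.23 that turned to 0.04 after quantile normalization and whose call was lost in the fit of the 4 libraries.

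**Figure D3:**
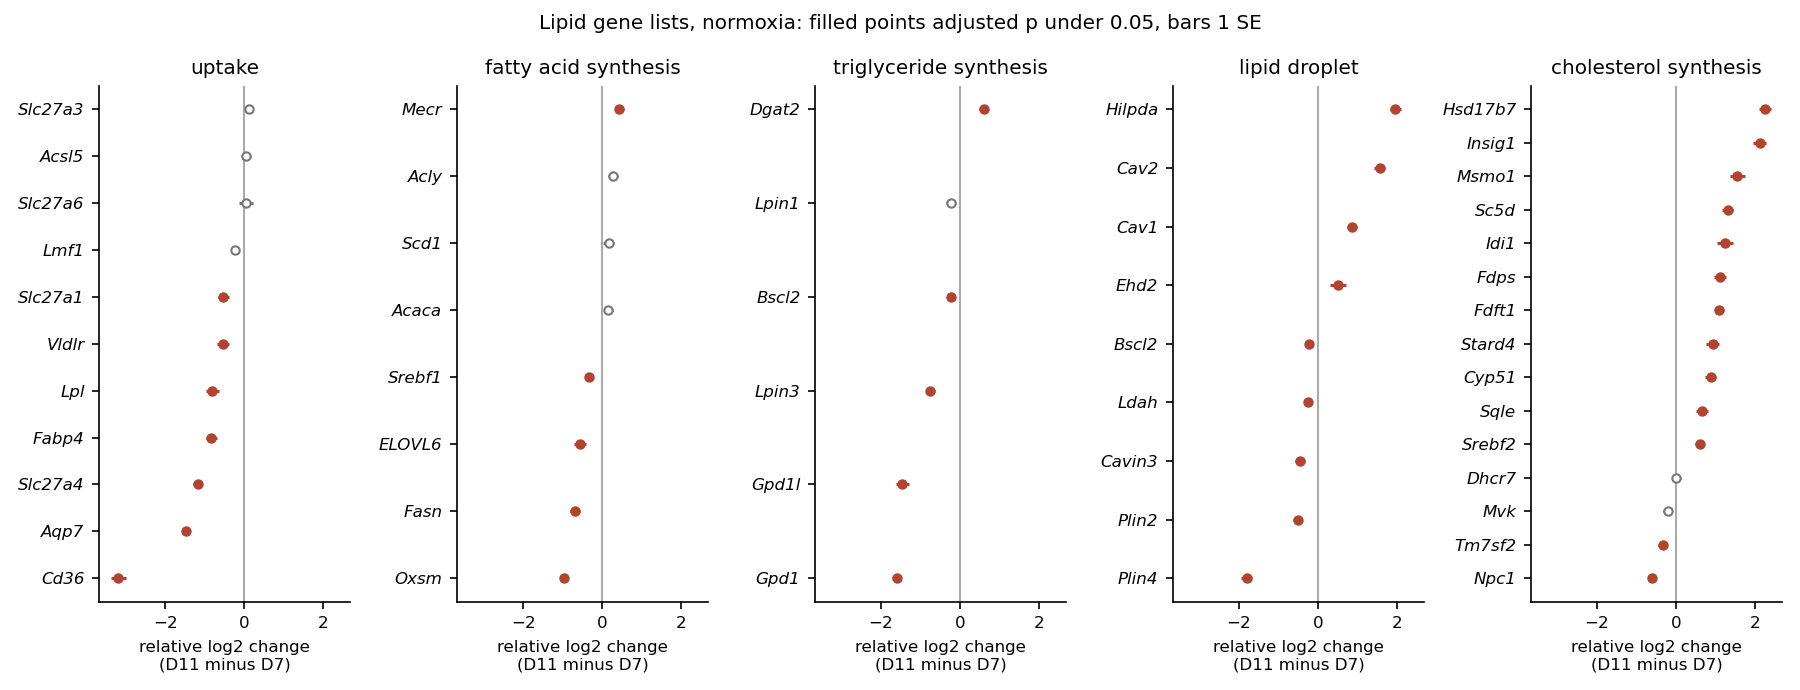
Relative log2(TPM + 1) change, Normoxia D11 minus D7, of the members analysed in 5 lipid gene lists, with bars of 1 SE from the limma fit and filled points for an adjusted p under 0.05. Cd36 stands lowest among the uptake genes at -3.19, and 11 of the 15 cholesterol genes lie to the right of 0 with filled points.

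Among droplet and caveola genes, Hilpda, Cav2, Cav1 and Ehd2 rose, and 2 perilipins, Cavin3, Ldah and Bscl2 fell. Cav2 had 32.7 and 36.6 TPM at D11, against 9.76 and 12.4 TPM at D7, and Cav1, the main caveola protein of adipocytes, had 316 and 407 TPM at D11, against 177 and 217 TPM at D7. Plin4, a perilipin of the droplet coat, had 1.05 and 0.988 TPM at D11, against 5.55 and 6.47 TPM at D7, and the perilipin Plin2 had 241 and 276 TPM at D11, against 359.6 and 375 TPM at D7 (-0.52 ± 0.10, adjusted p = 0.00032). Altogether 4 of 9 rose and 5 fell. The list median of -0.23 became 0.04 after quantile normalization, which also ended the calls of Cav1, Ehd2 and Ldah, and 0.36 over the 7 members of at least 5 TPM.

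Lipolysis and cAMP genes had 13 of 17 members lower and 3 higher (median -0.42). After quantile normalization 9 were lower and 3 higher (median -0.28), and of the 9 members of at least 5 TPM 5 were lower and 2 higher. Pnpla2, the ATGL lipase, rose, with 7.63 and 7.06 TPM at D11, against 4.02 and 4.63 TPM at D7, whereas Lipe, the hormone-sensitive lipase, had 5.04 and 5.05 TPM at D11, against 3.85 and 4.51 TPM at D7 and did not pass the test (adjusted p = 0.16). Abhd5, the activator of ATGL, had 63.1 and 73.4 TPM at D11, against 93.4 and 91.3 TPM at D7. The lipase and its activator thus moved in opposite directions, as did subunits of protein kinase A, the kinase that cAMP activates. Its catalytic subunit PRKACA had 28.8 and 34.3 TPM at D11, against 14.6 and 17.3 TPM at D7, and its regulatory subunit Prkar2b had 5.92 and 8.01 TPM at D11, against 13.1 and 13.9 TPM at D7. The phosphodiesterase Pde4d, which degrades cAMP, had 0.342 and 0.478 TPM at D11, against 2.12 and 2.87 TPM at D7.

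Of 9 fatty acid oxidation genes, 8 fell and none rose, with a median of -0.92. Cpt1a, the gate of mitochondrial fatty acid entry, had 1.73 and 2.16 TPM at D11, against 5.19 and 5.37 TPM at D7. Ppargc1a, a coactivator of mitochondrial genes, had 1.93 and 2.40 TPM at D11, against 7.23 and 6.44 TPM at D7, and Pex11a, of peroxisome division, 1.804 and 2.18 TPM at D11, against 5.93 and 6.60 TPM at D7. All of these and Ucp3 were lower in both D11 libraries, at levels below 10 TPM at D7 except for Ucp3.

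Pparg itself rose, with 221 and 294 TPM at D11, against 68.0 and 80.5 TPM at D7 (1.76 ± 0.15, adjusted p = 1.6e-08). Both D11 libraries were above every earlier normoxic library, whose group means ran from 24.9 TPM at D1 to 74.2 TPM at D7. Nr1h3, the liver X receptor α, fell, with 14.6 and 14.7 TPM at D11, against 51.5 and 51.4 TPM at D7, as did its target Abca1, the cholesterol exporter, with 3.62 and 4.67 TPM at D11, against 9.17 and 10.1 TPM at D7. Of 16 adipogenic transcription factors, 3 rose (Pparg, Rora and Klf4) and 8 fell (median -0.27). Adipocyte markers were mixed. Of 18 measured of 26 listed, 4 rose (Pparg, Cav1, Pnpla2 and Dgat2) and 9 fell (Cd36, Retsat, Plin4, Gpd1, Aqp7, Fabp4, Lpl, Fasn and Plin2), with a median of -0.18 that became 0.01 over the 15 members of at least 5 TPM. The share that fell was near the 43.4% of all mRNAs with a symbol. Fabp4 and Plin2 were above 200 TPM in all 4 libraries, while Lpl, Lipe and Gpd1 were below 10 TPM in all 4, and the other 8 listed markers, Adipoq and Plin1 among them, could not be matched to a listed mRNA and were not analysed here.

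**Figure D4:**
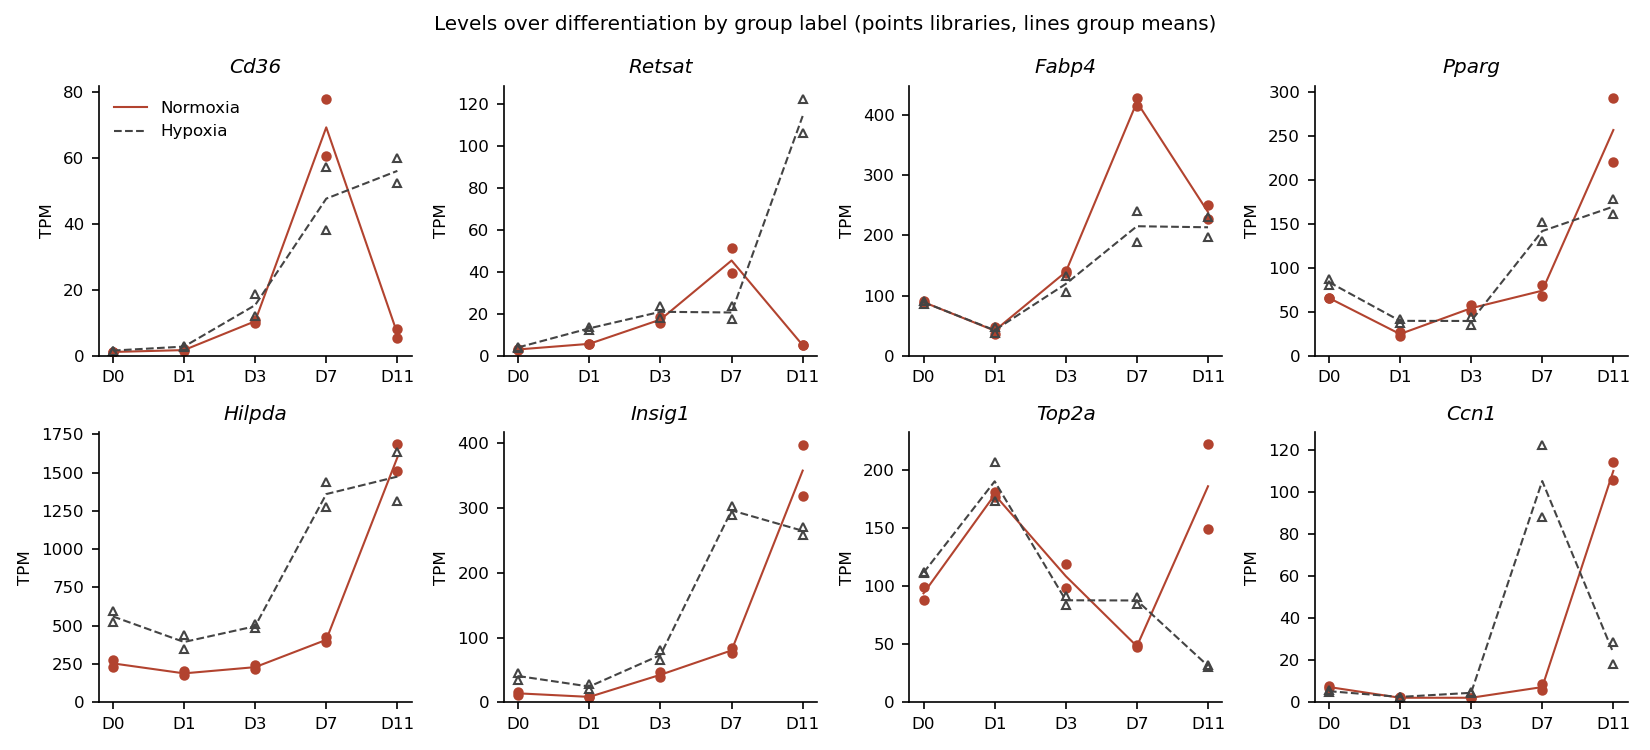
TPM of 8 mRNAs from D0 to D11 by group label, with a point per library and lines through the group means (solid circles Normoxia, open triangles and dashed lines Hypoxia). The Normoxia lines of Cd36, Retsat and Fabp4 peak at D7, at 69.2, 45.4 and 421 TPM, and those of Pparg, Hilpda, Insig1 and Ccn1 are highest at D11.

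Cholesterol synthesis genes, which SREBP2 drives when sterols in the endoplasmic reticulum are low, mostly rose. Of 15 measured members, 11 rose and 2 fell, with a median of 0.93. Idi1, the isomerase of isopentenyl diphosphate, had 63.1 and 91.2 TPM at D11, against 31.5 and 31.1 TPM at D7 (1.24 ± 0.21, adjusted p = 4.6e-05). Further along the pathway, Fdps had 104 and 119.8 TPM at D11, against 53.2 and 48.3 TPM at D7, and Fdft1, the first enzyme committed to sterols, 7.80 and 8.58 TPM at D11, against 3.37 and 3.16 TPM at D7. The late enzymes Msmo1, Sc5d and Cyp51 had changes of 1.56, 1.31 and 0.88, and Sqle one of 0.66. Hsd17b7, which also acts on sterol intermediates, had the largest, with 13.0 and 18.7 TPM at D11, against 2.99 and 2.01 TPM at D7. Stard4, a sterol carrier, and Srebf2 itself rose by 0.93 and 0.60. The fallers were Npc1 (-0.61), the lysosomal exporter, and Tm7sf2 (-0.34), whereas Dhcr7 (0.01) and Mvk (-0.21) did not pass the test. Each of the 11 risers was higher in both D11 libraries than in either D7 library, and after quantile normalization 12 rose and 1 fell. In a list of cholesterol export genes and liver X receptor targets, 1 of 9 members rose, Insig2 (0.64). In that list 4 fell, a share near the 43.4% of all mRNAs with a symbol.

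Genes of cell division rose. Of 60 mitosis genes, 59 rose and 1 fell (Mis12), 38 of the risers being DE, with a median of 1.21. Top2a, the topoisomerase that untangles chromosomes, had 149 and 222 TPM at D11, against 47.4 and 49.1 TPM at D7, and Cdc20, the activator of the anaphase-promoting complex, had 43.7 and 51.2 TPM at D11, against 11.8 and 12.1 TPM at D7. Cdca5, which protects sister chromatid cohesion, had 10.9 and 13.7 TPM at D11, against 2.94 and 2.32 TPM at D7. All 3 were more than 3 times higher at D11 by the means. Across the normoxic series the level of Top2a was highest at D1 and D11 and lowest at D7. Its group means were 93.7 TPM (D0), 178 TPM (D1), 109 TPM (D3), 48.3 TPM (D7) and 186 TPM (D11). Among 36 DNA replication genes, 26 rose and 1 fell (median 0.71). The licensing factor Cdt1 had 5.19 and 5.78 TPM at D11, against 1.17 and 1.33 TPM at D7, its inhibitor Gmnn 49.1 and 68.0 TPM at D11, against 21.4 and 18.6 TPM at D7, and the helicase subunit Mcm4 25.5 and 30.3 TPM at D11, against 10.6 and 11.2 TPM at D7. Cyclin D1 (Ccnd1), which acts at the entry to the cycle, fell, with 3.67 and 3.74 TPM at D11, against 12.2 and 15.4 TPM at D7. Of 19 growth arrest and cyclin-dependent kinase genes, 8 rose and 5 fell, with Gadd45b, a stress and growth arrest gene, at 27.4 and 26.4 TPM at D11, against 5.13 and 7.16 TPM at D7 and Gas1, named for growth arrest, at 1.57 and 0.913 TPM at D11, against 3.23 and 3.81 TPM at D7.

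Ribosomal protein mRNAs also rose as a block. All 15 measured members, including the elongation factors Eef1b2, Eef1g and Eef2, rose, by 0.64 to 1.72, 12 of them DE, and 10 still rose after quantile normalization, with a median of 0.54 in place of 1.34. Rps2, of the small subunit, had 1201 and 1246 TPM at D11, against 363 and 375 TPM at D7, and Rpl27, of the large subunit, 1788 and 2009 TPM at D11, against 635 and 657 TPM at D7. Of 15 oxidative phosphorylation subunits, 11 rose and none fell (median 0.60), with 7 higher and 1 lower after quantile normalization (median 0.24). Cox6a1 of complex IV had 540.4 and 567 TPM at D11, against 265 and 257 TPM at D7, and Ndufb8 of complex I 155 and 149 TPM at D11, against 78.3 and 84.8 TPM at D7. Cox7a1, a complex IV isoform of muscle and brown fat, had 28.4 and 40.4 TPM at D11, against 20.7 and 10.0 TPM at D7, a call lost without replicate 2 of Normoxia D7. Most of these genes belong to the abundant mRNAs, which rose as a class, and the part of abundance in their rise was not tested. Ribosomal protein genes have many near-identical copies in mammalian genomes, as does Gapdh, so that the division of reads among them is uncertain.

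Glycolytic genes and other HIF targets were mostly higher at D11 in the libraries labelled Normoxia. In glycolysis 7 of 12 members rose and 3 fell, and outside it 22 of 36 HIF targets rose and 5 fell, with medians of 0.50 and 0.56. After quantile normalization 6 rose and 4 fell in glycolysis (median 0.03) and 16 rose and 7 fell outside it (median 0.21). Gapdh had 3668 and 3830.1 TPM at D11, against 1013 and 1153 TPM at D7. Slc2a1, the glucose transporter GLUT1, had 130.5 and 136 TPM at D11, against 38.4 and 38.9 TPM at D7, and Pgk1 1865 and 2186 TPM at D11, against 744 and 811 TPM at D7. The mitophagy receptor Bnip3 had 616 and 762 TPM at D11, against 216 and 242 TPM at D7. These 4 mRNAs were more than 2 times higher at D11 by the means. Among the fallers was Pfkl, a subunit of phosphofructokinase, with 43.2 and 40.4 TPM at D11, against 80.2 and 90.6 TPM at D7. The repressor Bhlhe40 had 18.3 and 19.0 TPM at D11, against 5.76 and 6.95 TPM at D7, and Hmox1, heme oxygenase, 295 and 290.5 TPM at D11, against 96.4 and 109 TPM at D7. Set against each other at D11, the oxygen groups had no single order over these genes. In the Hypoxia D11 libraries, Gapdh had 2257 and 1919 TPM and Slc2a1 126 and 117 TPM, below the Normoxia D11 libraries, whereas Bhlhe40 had 29.6 and 25.9 TPM and Pfkl 131 and 100.0 TPM, above them. Of the 36 HIF targets outside glycolysis, 11 were higher and 10 lower in Hypoxia D11 than in Normoxia D11 relative to the medians, 23 and 3 without the medians, and 21 and 6 after quantile normalization.

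**Figure D5:**
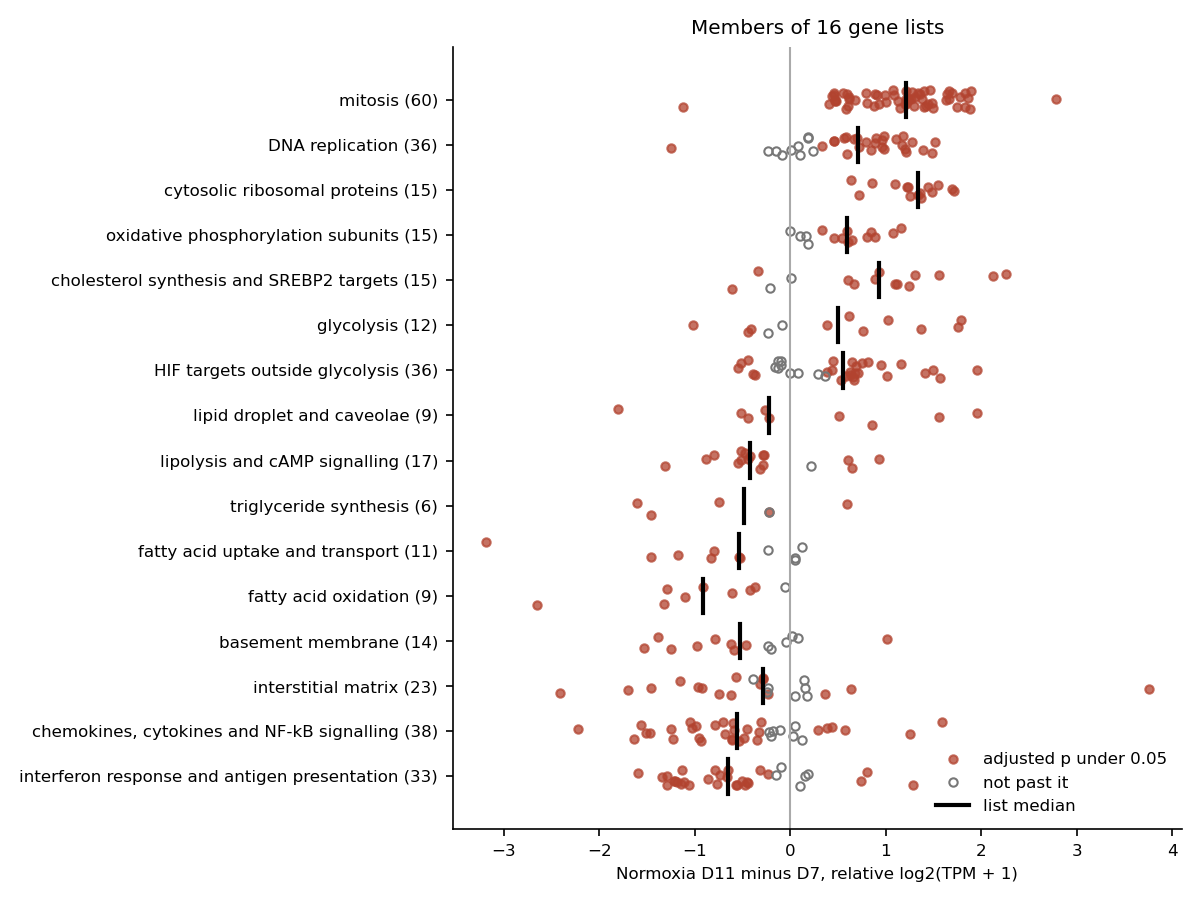
Relative log2(TPM + 1) change, Normoxia D11 minus D7, of the measured members of 16 gene lists (numbers of members in brackets), filled where the adjusted p was under 0.05, with the list median as a black bar. Mitosis (median 1.21) and ribosomal proteins (1.34) lie to the right of 0, and fatty acid oxidation (-0.92) and interferon genes (-0.66) to the left.

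Genes of inflammation and innate immunity were mostly lower at D11, in shares above the 43.4% of all mRNAs with a symbol. In the interferon list 25 of 33 members fell and 3 rose (median -0.66), and among chemokines, cytokines and NF-κB genes 25 of 38 fell and 6 rose (median -0.56). The Hypoxia D11 libraries were also set against Normoxia D7, relative to the median. By them 13 of the interferon genes were lower and 4 higher, but 5 of the chemokine list were lower and 13 higher. The transcription factor Irf1 had 6.09 and 6.43 TPM at D11, against 18.6 and 23.2 TPM at D7, and Eif2ak2, the sensor PKR of double-stranded RNA, 3.32 and 4.68 TPM at D11, against 10.9 and 12.1 TPM at D7. Csf1, the growth factor of macrophages, had 1.85 and 2.15 TPM at D11, against 7.24 and 9.34 TPM at D7, and the interleukin 1 receptor Il1r1 5.84 and 8.80 TPM at D11, against 22.8 and 23.2 TPM at D7. All 4 were lower in both D11 libraries. Casp1, the caspase of the inflammasome, had 1.36 and 1.63 TPM at D11, against 9.27 and 9.93 TPM at D7, whereas Aim2, a DNA sensor of inflammasomes, rose, with 47.8 and 60.3 TPM at D11, against 18.0 and 18.2 TPM at D7. Litaf, which induces TNF in macrophages, rose as well, with 33.9 and 35.0 TPM at D11, against 9.63 and 11.9 TPM at D7. The direction was thus not uniform across the inflammasome genes. Of 24 cell death genes, 14 fell and 5 rose (median -0.44), among the fallers Casp12 (4.04 and 5.55 TPM at D11, against 15.4 and 17.2 TPM at D7), a caspase of the endoplasmic reticulum. Ptges, the prostaglandin E synthase, had 0.848 and 0.952 TPM at D11, against 4.43 and 4.35 TPM at D7.

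Matrix genes were mixed. Structural genes fell more often than they rose, while enzymes and proteases rose about as often as they fell. Of 14 basement membrane genes 8 fell and 1 rose, the riser being Nid2 (1.02). Col18a1 had 6.83 and 6.50 TPM at D11, against 17.2 and 20.6 TPM at D7, Col4a2 24.5 and 23.5 TPM at D11, against 52.6 and 64.0 TPM at D7, and Ntn4, a netrin that binds laminin, 9.59 and 11.3 TPM at D11, against 28.3 and 35.6 TPM at D7. Of 23 interstitial matrix genes 13 fell and 3 rose, or 9 and 6 after quantile normalization, beside the 43.4% of all mRNAs with a symbol that fell. Ccn5 moved opposite to its family member Ccn1, with 0.498 and 0.506 TPM at D11, against 6.29 and 7.60 TPM at D7, and the proteoglycan Dcn had 1.53 and 2.47 TPM at D11, against 8.08 and 9.11 TPM at D7. Ltbp3, which stores TGF-β in the matrix, had 0.527 and 0.682 TPM at D11, against 1.67 and 2.42 TPM at D7. Collagen XII (Col12a1) had 0.706 and 1.13 TPM at D11, against 3.71 and 4.79 TPM at D7. All of these were lower in both D11 libraries. Among 16 collagen processing enzymes, 6 rose and 5 fell, but 2 and 8 after quantile normalization, with P4ha1, a collagen hydroxylase and HIF target, at 358 and 463 TPM at D11, against 190.0 and 209.8 TPM at D7 and the crosslinking enzyme Tgm2 at 1.70 and 1.74 TPM at D11, against 6.31 and 6.25 TPM at D7. Matrix proteases and their inhibitors had 6 of 17 members higher and 5 lower, with Mmp12, the macrophage elastase, at 13.1 and 15.6 TPM at D11, against 4.12 and 4.47 TPM at D7 and Adamts4, which cleaves aggrecan, at 0.0834 and 0.177 TPM at D11, against 1.33 and 1.63 TPM at D7.

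Stress, hormone and clock genes rose in larger shares than the 24.1% of all mRNAs with a symbol. The integrated stress response list had 9 of 20 members higher and 5 lower, led by Fgf21, Atf3 (1.52) and Chac1 (1.10), but 8 and 8 after quantile normalization, under which its median of 0.27 became 0.04. Immediate early genes had 15 of 28 higher and 6 lower, glucocorticoid-responsive genes 8 of 14 higher and 3 lower, and clock genes 8 of 13 higher and 2 lower. Atf3, a stress-induced repressor, had 21.2 and 23.04 TPM at D11, against 6.88 and 7.15 TPM at D7. Ciart, a repressor of CLOCK and BMAL1, had 20.4 and 24.0 TPM at D11, against 5.05 and 4.502 TPM at D7, and Dbp, an output factor of the clock, 19.2 and 19.5 TPM at D11, against 8.26 and 7.84 TPM at D7. All 3 were more than 2 times higher by the means. Sgk1, a kinase induced by glucocorticoids, had 28.7 and 41.8 TPM at D11, against 15.6 and 14.2 TPM at D7, and Dusp6, a phosphatase of ERK, fell, with 0.549 and 0.630 TPM at D11, against 5.20 and 5.46 TPM at D7. ER chaperone genes counted 9 of 19 higher and 3 lower, but 5 and 5 after quantile normalization, under which the chaperone Hspa5 (528 and 678 TPM at D11, against 345 and 351 TPM at D7) no longer passed the test. Of 20 antioxidant genes 12 rose and 3 fell, but 5 rose and 8 fell after quantile normalization, and their median of 0.37 became -0.13. The metal-binding Mt1 and Mt2 had changes of 1.29 and 0.84, the call of Mt1 being lost after that normalization.

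Markers of other cells were mixed. Of 12 preadipocyte and fibroblast markers, 3 rose, led by Cd44 (102 and 128 TPM at D11, against 37.1 and 41.8 TPM at D7), and 7 fell, among them Pdgfra (9.77 and 12.3 TPM at D11, against 19.5 and 21.6 TPM at D7). Macrophage and leukocyte markers had 2 of 9 higher and 5 lower (median -0.51, but 0.62 over the 2 members of at least 5 TPM, both of which rose), and summed to 39.2 and 43.7 TPM at D11, against 32.0 and 32.0 TPM at D7. The larger part of the D11 sum was Lcp1, with 22.4 and 27.5 TPM at D11, against 13.3 and 13.2 TPM at D7, and Ptprc, Adgre1 and Cd68 could not be matched to a listed mRNA and were not analysed here. Endothelial markers had 3 of 8 higher and 4 lower (median -0.30, but 0.92 over the 3 members of at least 5 TPM, of which 2 rose), and summed to 48.2 and 55.3 TPM at D11, against 37.1 and 36.4 TPM at D7. Their defining member Pecam1 was low at both days, with 0.662 and 0.793 TPM at D11, against 1.84 and 1.86 TPM at D7, and thrombomodulin (Thbd, 1.20) and the protein C receptor (Procr, 1.07) rose. Epithelial and mesothelial markers had 2 of 8 higher and 3 lower, and summed to 73.7 and 78.2 TPM at D11, against 38.4 and 43.5 TPM at D7. Epcam, the defining epithelial marker, was low at both days too, with 0.556 and 0.427 TPM at D11, against 1.95 and 2.23 TPM at D7, while Spint2, a protease inhibitor, had 52.8 and 57.1 TPM at D11, against 15.9 and 17.4 TPM at D7. Pecam1 and Epcam thus fell while the sums of their lists were higher at D11, and the part of such cells in the other changes was not tested. Beige and brown adipocyte markers were covered by 4 of 13 members, of which 2 rose (Fgf21 and Cox7a1) and 1 fell (Ppargc1a).

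The remaining lists were mixed. Autophagy and lysosome genes had 6 of 28 higher and 7 lower, branched-chain amino acid breakdown 2 of 9 higher and 3 lower, and actin and adhesion genes 9 of 32 higher and 9 lower. Ankrd1, a target of YAP, stood apart from the rest of the actin list, with 9.30 and 9.37 TPM at D11, against 1.24 and 1.60 TPM at D7. Insulin and mTOR genes had 5 of 25 higher and 7 lower. Pik3r1, the main regulatory subunit of PI3 kinase, had 7.73 and 10.0 TPM at D11, against 22.2 and 23.8 TPM at D7, and Eif4ebp1, which restrains translation, 254 and 246 TPM at D11, against 126 and 129.9 TPM at D7. The medians of the actin and insulin lists, 0.04 and -0.15, changed sign after quantile normalization.

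The 8 gene lists of the study, which were applied by it to these same samples and are no independent evidence of a direction, were counted as well. Lipolysis had 9 of 11 members lower and 1 higher. Lipogenesis had 4 of 7 higher and 1 lower, with Pparg, Cav2, Fas and Cav1 as the risers. Fas is a death receptor, and its call was lost without replicate 1 of Normoxia D7. The pro-inflammatory list had 16 of 25 lower and 4 higher, and the anti-inflammatory list 9 of 14 higher and 1 lower, led by Pbk, a mitotic kinase, Dusp10 and Metrnl. Matrix deposition genes had 23 of 48 lower and 8 higher, and adipokines 9 of 24 lower and 5 higher, both near the shares of all mRNAs with a symbol (43.4% lower and 24.1% higher). Hyperplasia genes had 6 of 11 higher and 1 lower, and hypertrophy genes 1 of 7 higher and 2 lower.

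The step was then set against the same step in hypoxia, with which it shares no library. In hypoxia the median change of all mRNAs was 0.72 and each step was taken relative to its own median. By the adjusted p, 26.9% of the mRNAs rose and 27.8% fell in the hypoxic step. The difference of the steps, normoxic minus hypoxic, passed an adjusted p under 0.05 and a size of 1 for 1533 mRNAs with a higher change in normoxia (14.9%) and 1340 with a lower change (13.0%). Without subtraction of the medians these were 445 and 3811. As each sign in hypoxia rests on that median, the levels are given beside it. For Ccn1 the step was 3.75 in normoxia and -2.85 in hypoxia (6.61 ± 0.26, adjusted p = 6.4e-13), and the hypoxic libraries had 28.9 and 18.2 TPM at D11, against 88.3 and 122 TPM at D7. For Cyp4b1 it was -3.73 and 2.59, with 44.4 and 48.6 TPM at D11, against 5.08 and 2.73 TPM at D7 in hypoxia. Retsat had 123 and 106 TPM at D11, against 24.0 and 17.4 TPM at D7 in hypoxia. By the adjusted p alone, 33.6% of the mRNAs had a higher and 31.9% a lower change in normoxia, and without the medians 12.1% and 62.6%. These are shares of all mRNAs, whereas list members have a symbol, which leans towards mRNAs that the study called between hypoxia and normoxia. For the contrasts that involve hypoxic libraries, shares among mRNAs with a symbol were not counted. The list counts of these contrasts are therefore no independent evidence of a difference by oxygen. Of the 60 mitosis genes, 59 had a higher change in normoxia and 59 fell in the hypoxic step, where their median was -1.33. Without the medians these were 56 and 48, although 79.8% of all mRNAs then rose and 3.90% fell in the hypoxic step. The cholesterol list had medians of 0.93 in normoxia and -0.66 in hypoxia, with 11 of 15 members higher in the difference, and the interferon list -0.66 and 0.35, with 23 of 33 lower. Without the medians 9 cholesterol genes were higher and 28 interferon genes lower in the difference, and the hypoxic median of the cholesterol list was 0.06. Cd36 had 52.2 and 59.8 TPM at D11, against 57.1 and 38.1 TPM at D7 in hypoxia, a change of -0.47 relative to the median although its mean TPM was higher at D11. Fabp4 had 230.2 and 197 TPM at D11, against 241 and 189 TPM at D7 in hypoxia (-0.73), and the difference of -0.10 between the steps did not pass the test (adjusted p = 0.69). Aqp7 had 0.955 and 0.598 TPM at D11, against 0.973 and 0.843 TPM at D7 in hypoxia (-0.83).

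With the Hypoxia D11 libraries in place of the Normoxia D11 libraries, 22.6% of the mRNAs rose and 23.9% fell against Normoxia D7, and 117 were DE higher and 300 DE lower. The mitosis list then had 0 members higher and 50 lower, the cholesterol list 2 and 9, fatty acid uptake 2 and 3, and the HIF targets 22 and 0. DNA replication genes had 0 members higher and 31 lower, and chemokines, cytokines and NF-κB genes 13 and 5. The pro-inflammatory list of the study had 9 and 5, and the interferon list 4 and 13. The median change of all mRNAs was 0.51 in this comparison, and without its subtraction 69.3% of the mRNAs rose and 5.08% fell, the mitosis list having 4 members higher and 22 lower, the cholesterol list 4 and 4, fatty acid uptake 7 and 2, and the HIF targets 34 and 0. Relative to the median the change was -0.80 for Cd36, 0.81 for Retsat, 0.68 for Pparg and 1.33 for Hilpda. Pparg and Hilpda were thus higher than at D7 by either pair of D11 libraries. On this relative scale the direction depended on which D11 libraries were used for Retsat and for several lists. Among these were the mitosis, DNA replication, cholesterol, chemokine and pro-inflammatory lists. Cd36 had 52.2 and 59.8 TPM in the Hypoxia D11 libraries, against the 60.5 and 77.8 TPM of the Normoxia D7 libraries.

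Among lncRNAs, changes on log2(TPM + 0.1) were taken relative to a median of -0.31 and called DE at an adjusted p under 0.01 and a size of 1. DE lncRNAs numbered 267 higher at D11 (6.22%) and 213 lower (4.96%). Without the subtraction of the median they were 145 and 423, so that the balance between rises and falls depends on this scaling. In a fit of the 4 libraries alone they were 10 and 9, and without replicate 2 of Normoxia D7 they were 176 and 109. The count of lower lncRNAs was also 115 without replicate 1 of Normoxia D7 and 136 without replicate 2 of Normoxia D11. The 4 largest rises were in lncRNAs with no gene name that were below 50 TPM in both D7 libraries. G15991 had 13598 and 11938 TPM at D11, against 45.5 and 38.3 TPM at D7, G16140 3417 and 2293 TPM at D11, against 11.9 and 12.1 TPM at D7, G16043 2224 and 1802 TPM at D11, against 4.43 and 4.09 TPM at D7 and G15856 215 and 162 TPM at D11, against 0.684 and 0.581 TPM at D7. All 4 were higher still in the Hypoxia D11 libraries, with 40231 and 62630.3 TPM of G15991, and none of the D0 to D7 libraries was above 282 TPM of it. Its replicates differed at Hypoxia D7 (43.7 and 282 TPM) and at Normoxia D1 (44.1 and 231 TPM). An mRNA without a symbol, ENSCGRG00015001798, singled out after its values were seen, moved with these 4 lncRNAs. It had 24959 and 14488 TPM at D11, against 11.9 and 9.53 TPM at D7, and 62181 and 62736 TPM in the Hypoxia D11 libraries. Together these 5 transcripts held 4.44% and 3.07% of all TPM in the Normoxia D11 libraries, against 0.0074% and 0.0065% in the Normoxia D7 libraries. Their part in the other changes was not tested.

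The largest lncRNA falls ended near 0 at D11. G7652 had 0.108 and 0.151 TPM at D11, against 10.1 and 7.93 TPM at D7, G10898 0.0177 and 0.0757 TPM at D11, against 3.10 and 3.39 TPM at D7 and ENSCGRG00015016674 0.0589 and 0.0653 TPM at D11, against 2.19 and 2.42 TPM at D7, while G1652 was listed at 0 in both D11 libraries and at 3.12 and 3.57 TPM at D7. In the hypoxic step the relative changes of G7652 and G10898 were 2.29 and 1.47. Across all lncRNAs, the difference of the steps was past its threshold for 432 with a higher change in normoxia (10.1%) and 365 with a lower one (8.50%), and for 51 and 2325 without the medians. For the 4 largest rises the difference did not pass the threshold. Of the lncRNAs that the study discusses as neighbours of adipose genes, ENSCGRG00015025821, beside Hilpda, rose, with 7.48 and 7.12 TPM at D11, against 1.46 and 1.63 TPM at D7 (2.48 ± 0.15, adjusted p = 1.5e-07). G7803, beside Ltbp3, fell, with 0.290 and 0.294 TPM at D11, against 1.22 and 1.52 TPM at D7, though its adjusted p was 0.031 in a fit of the 4 libraries. The direction was the same as that of the neighbouring mRNA in both pairs. The study had chosen its pairs for a positive correlation of expression, so that this is no independent evidence. G9207, beside Cblb, G3175, beside Csf1, and G934, near Cdsn, did not pass the lncRNA threshold, with changes of -0.92, -0.83 and 0.42.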

How the data were processed

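RNA depleted of ribosomal RNA was sequenced from 20 libraries of hamster preadipocytes, in 10 groups of 2. Per the submitters' processing notes and the study's methods, base calls were made with CASAVA 1.8.2, reads were mapped with STAR 2.6.0c to the Chinese hamster assembly CriGri-PICR, and TPM were computed with kallisto 0.44.0. The authors deposited TPM values for 10318 mRNAs and 4295 lncRNAs, and in the files every mRNA exceeds 1 TPM, and every lncRNA 0.1 TPM, in both libraries of at least 1 group. TPM gives no read depth, so that no interval or floor for counting error could be given and no count test was run, and the number of libraries limits the precision.

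The log2 levels of mRNAs (TPM + 1) and of lncRNAs (TPM + 0.1) were fitted with limma 3.58.1 in R 4.3.3, with 1 mean per group over all 20 libraries (10 residual degrees of freedom) and an empirical Bayes trend. The pseudocounts understate the change of low transcripts. Each contrast minus the median change of all mRNAs, or of all lncRNAs, was tested, and p-values were adjusted after Benjamini and Hochberg over all of them. The difference of the steps was the normoxic minus the hypoxic contrast, each relative to its own median. The script was tested on simulated data. Tables and plots were made with Python 3.11.15, pandas 2.3.3, numpy 2.4.6 and matplotlib 3.10.9.

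The deposited files hold gene identifiers, and symbols came from gene tables of the study for 3851 mRNAs and no lncRNA, mostly genes that the study had called or listed. Named mRNAs were the 12 largest rises and 12 largest falls among DE mRNAs with a mean of at least 10 TPM in the higher group and no overlap of libraries, the 4 largest called changes of each list, all members of 6 lipid lists, genes named in the study's results, and the 6 largest differences of the steps in each direction. Named lncRNAs were the 4 largest rises and 4 largest falls with a mean of at least 1 TPM in the higher group, and those named by the study. A few genes are not reported here and were left out of the lists. The 39 gene lists come from general knowledge and 8 from the study. The comparison, members and lists were chosen with earlier results of these data known. Alternatives were the pseudocount, a filter on low values, quantile normalization, other medians, smaller sets of libraries, a replicate block, each library left out in turn, and, chosen after seeing the data, the Hypoxia D11 libraries in place of Normoxia D11 and other scalings of the contrasts with these libraries.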

Additional observations from a re-analysis of the deposited data

Results flagged for a closer look

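The step from D7 to D11 differed between normoxia and hypoxia, which was tested as the difference of the 2 contrasts in the limma fits. It was past its threshold for 1533 mRNAs with a higher change in normoxia and 1340 with a lower one, and for 432 and 365 lncRNAs. The 6 largest differences towards normoxia were those of Ccn1 (6.61 on the relative log2 scale), Fgf21 (4.80), Ube2c (4.50), Top2a (4.06), Gadd45b (3.98) and Avpi1 (3.88). The 6 largest the other way were those of Cyp4b1 (-6.32), Retsat (-4.625), Krcc1 (-4.60), Rnf125 (-4.47), Bmf (-4.36) and Sult1a1 (-4.34). Avpi1, a vasopressin-induced transcript, had 368 and 316 TPM at D11, against 97.7 and 92.2 TPM at D7 in normoxia and 132 and 102 TPM at D11, against 240.0 and 360.4 TPM at D7 in hypoxia. All 12 rest on the oxygen labels of D11. At that day the hypoxia-responsive mRNAs had no order by label that held across scalings. Without median subtraction 36 of 75 were higher and 15 lower in Hypoxia, beside 63.3% and 13.2% of all mRNAs. After quantile normalization these counts were 37 and 18 (33.1% and 32.9% of all). Relative to the medians they were 17 and 31 (32.2% and 33.3% of all). Groups of 2 libraries are too small to be searched for a library that stands apart.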

How the results depend on the processing

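The libraries are few and TPM gives no depth, so that the limits below are those of 2 libraries per group, of the scaling and of the D11 labels. The number of mRNAs higher at D11 was 539, and 324 among mRNAs with a mean of at least 5 TPM, 292 after quantile normalization and 117 with the Hypoxia D11 libraries in place of the Normoxia D11 libraries, an alternative chosen after seeing the data. The number lower was 436, and 1006 with a pseudocount of 0.1. Leaving out each library gave 501 to 594 higher and 417 to 485 lower mRNAs. Quantile normalization moved the balance of calls, to 292 higher and 391 lower mRNAs and to 193 higher and 242 lower lncRNAs. The number of lncRNAs higher at D11 was 267, and 10 in the fit of the 4 libraries, 144 with the mRNA median subtracted, 145 with none, 102 with a pseudocount of 1, 67 with the Hypoxia D11 libraries and 176 to 214 without each library. The number of lncRNAs lower was 213, and 9, 429, 423 and 62 under the first 4 of these and 109 to 142 without each library, with 136, 115 and 109 without Normoxia D11 replicate 2, Normoxia D7 replicate 1 and Normoxia D7 replicate 2. The lowest number of higher lncRNAs, 176, came without Normoxia D7 replicate 2. Without medians subtracted, the difference of the steps was called for 445 and 3811 mRNAs and for 51 and 2325 lncRNAs, higher and lower in normoxia, the hypoxic medians being 0.72 for mRNAs and 1.28 for lncRNAs. Of the named results, 25 of 202 mRNAs, 1 of 13 lncRNAs (G7803) and 0 of 12 differences lost or turned a call under at least 1 of the alternatives other than the Hypoxia D11 libraries, and among these Bscl2 alone turned, to 0.035 after quantile normalization. With the Hypoxia D11 libraries in place of the Normoxia D11 libraries, 70 of the 190 named mRNAs that were called kept their call and direction and 35 were called in the other direction. Between Normoxia D11 and D7, libraries with the same replicate number did not deviate together, the correlation of their deviations being -0.003 for mRNAs and 0.004 for lncRNAs. Over all 45 pairs of groups it ran from -0.44 to 0.37 for mRNAs and from -0.10 to 0.10 for lncRNAs. With the replicate block, 538 mRNAs were higher and 436 lower, 264 lncRNAs were higher and 206 lower, and the difference of the steps was called for 1532 and 1340 mRNAs and 404 and 336 lncRNAs.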

Other observations

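Families of genes that no list covered were read by the start of their symbols, chosen after the values were seen and described without a test. Of 114 zinc finger genes with symbols starting with Zfp, 87 fell and 7 rose in the normoxic step, with a median relative log2 change of -0.58 and one of 0.45 in the hypoxic step. After quantile normalization, 75 fell and 9 rose. Zfp113 had the largest fall, with means of 1.26 TPM at D11 and 9.24 TPM at D7, and Zfp367, a factor linked to cell division, the largest rise, with 22.5 TPM at D11 and 7.38 TPM at D7. Of 10 genes whose symbols start with Parp, 8 fell and 1 rose, and the riser was Parpbp, which is a binding partner of PARP1 and no polymerase. Among 72 solute carriers, 35 fell and 8 rose. The urea transporter Slc14a1 averaged 31.3 TPM at D11 and 100.6 TPM at D7, and the phosphate transporter Slc20a1 48.7 TPM at D11 and 16.8 TPM at D7. Of 14 mitochondrial ribosomal proteins, 9 rose and 1 fell, the faller being Mrpl58 (-1.53), a peptidyl-tRNA hydrolase. These shares stand beside 24.1% risen and 43.4% fallen among all mRNAs with a symbol.

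Some lncRNAs outside the naming rule lie beside genes of known function in the study's list of neighbours, and were picked after their values were seen. G11396, beside the stress repressor Atf3, had 4.87 and 6.18 TPM at D11, against 0.661 and 1.01 TPM at D7, and Atf3 rose too (1.52). G13831, beside the Wnt target Axin2, averaged 12.7 TPM at D11, against 1.37 TPM at D7, while Axin2 did not pass the test (0.23, adjusted p = 0.061, limma). G8643, beside Chordc1, a cochaperone of HSP90, had 4.78 and 7.05 TPM at D11, against 80.7 and 88.5 TPM at D7, while Chordc1 had a change of -0.34 (adjusted p = 0.060, limma). A large change of the lncRNA thus stood beside a called change of its neighbour in the first of these pairs and beside none in the other 2.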
